A study of Mus musculus with 8 samples.

Results

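Glucose uptake and glycolysis were followed through 10 genes in satellite cells, from which skeletal muscle regenerates. They are 10 of the 24328 gene symbols measured and were taken by symbol, for their place in the pathway, with earlier results of these data known. The set holds the glucose transporter Slc2a1, the hexokinases Hk1 and Hk2, Gapdh, Pgk1, the enolases Eno1 and Eno3, the lactate dehydrogenases Ldha and Ldhb, and Pdk1, a kinase that holds back pyruvate dehydrogenase. RNA was sequenced in 8 libraries, 2 in each of 4 groups, all from C57BL/6 mice aged 2 months whose muscle cells were stained for Vcam, CD31, CD45 and Sca-1 and sorted. PFA-perfused cells came from Pax7-nGFP mice, in which a nuclear fluorescent protein reports Pax7, perfused with the fixative paraformaldehyde ahead of dissociation. The PBS-perfused group also used Pax7-nGFP mice, perfused with buffer. Unperfused and injury-activated cells were both taken from wild type mice that were not perfused, the latter at 2.5 days after injury. The kind of injury and the number of mice behind a library were not given in the sources used here.

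Glucose enters most cells through transporters of the Slc2a family and is trapped by hexokinase as glucose 6-phosphate. Gapdh and Pgk1 carry out the middle steps, in which the pathway yields its NADH and ATP, and enolase makes the substrate of pyruvate kinase. Lactate dehydrogenase turns pyruvate into lactate and recovers the NAD that Gapdh uses, whereas pyruvate dehydrogenase sends pyruvate into the mitochondrion. Several of these steps have isozymes that differ between tissues. Hk2, Eno3 and Ldha are the forms known from adult muscle fibres, and Hk1, Eno1 and Ldhb are the forms common in many other tissues or, for Ldhb, in heart. Quiescent satellite cells are described as relying little on glycolysis, and activated ones as using it more.

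Levels are given as FPKM, a fragment count divided by transcript length and library size, and differences as log2 of FPKM + 1. Groups were compared with limma on all 12515 genes that reached 1 FPKM in at least 2 libraries, and a gene was called at an adjusted p under 0.05. FPKM summed to between 461454 and 582336 per library, the table holds no counts, and the depth behind each value is therefore unknown. Whether both libraries of a group derive from different animals is not stated in the labels, and p-values therefore reflect the spread between these libraries alone, which may be technical. All 9 satellite cell markers reached 1 FPKM in both libraries of the PFA-perfused, PBS-perfused and unperfused groups, and 8 of 9 did in the injury-activated group, where Calcr stood at 0.682 and 0.548 FPKM. Their levels were far from even across groups. Means of Pax7 were 448 FPKM in PFA-perfused cells, 63.9 in PBS-perfused cells, 20.1 in unperfused cells and 4.50 in injury-activated cells, those of Chodl ran from 988 to 5.49 and those of Cd34 from 154 to 14.3 over the same order, and those of Itga7 were 72.4, 46.6, 147 and 145. The fixed cells also differed from the others in RNA kit and in the amount of collagenase, and the groups differed in genotype as given above. Fixation, kit and collagenase cannot be told apart in comparisons with the PFA-perfused group. Genotype and perfusion add to these where the other group is unperfused or injury-activated, and injury adds as well where it is injury-activated. Perfusion and genotype cannot be told apart between the PBS-perfused and unperfused groups. The series names the sequencers NextSeq 500 and HiSeq 2000, and which library ran on which was not given in the sources used here. Ribosomal Rn45s made up 9.80% and 19.4% of FPKM in the PFA-perfused libraries and at most 6.64% in any other, and the syndecan Sdc4 made up 5.84% and 8.74% in the unperfused libraries and at most 0.559% elsewhere. The part of these shares in the differences was not tested beyond the scalings given here. In bulk RNA, fewer cells of a type and less RNA per cell cannot be told apart.

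All 10 genes passed the filter on low values, Hk2 with both PFA-perfused libraries below 1 FPKM and Pdk1 with both injury-activated libraries below 1 FPKM. Together they made up 0.202% and 0.204% of all FPKM in the PFA-perfused libraries and 0.123% and 0.131% in the PBS-perfused libraries. The share was 0.133% and 0.106% in the unperfused libraries and 1.56% and 1.55% in the injury-activated libraries. Eno1 alone held 0.659% and 0.660% of all FPKM in the injury-activated libraries. The highest group mean exceeded the lowest by 606 times for Eno3, 407 times for Hk2 and 50.5 times for Eno1. For Hk1 the highest mean was 1.80 times the lowest.

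**Figure D1:**
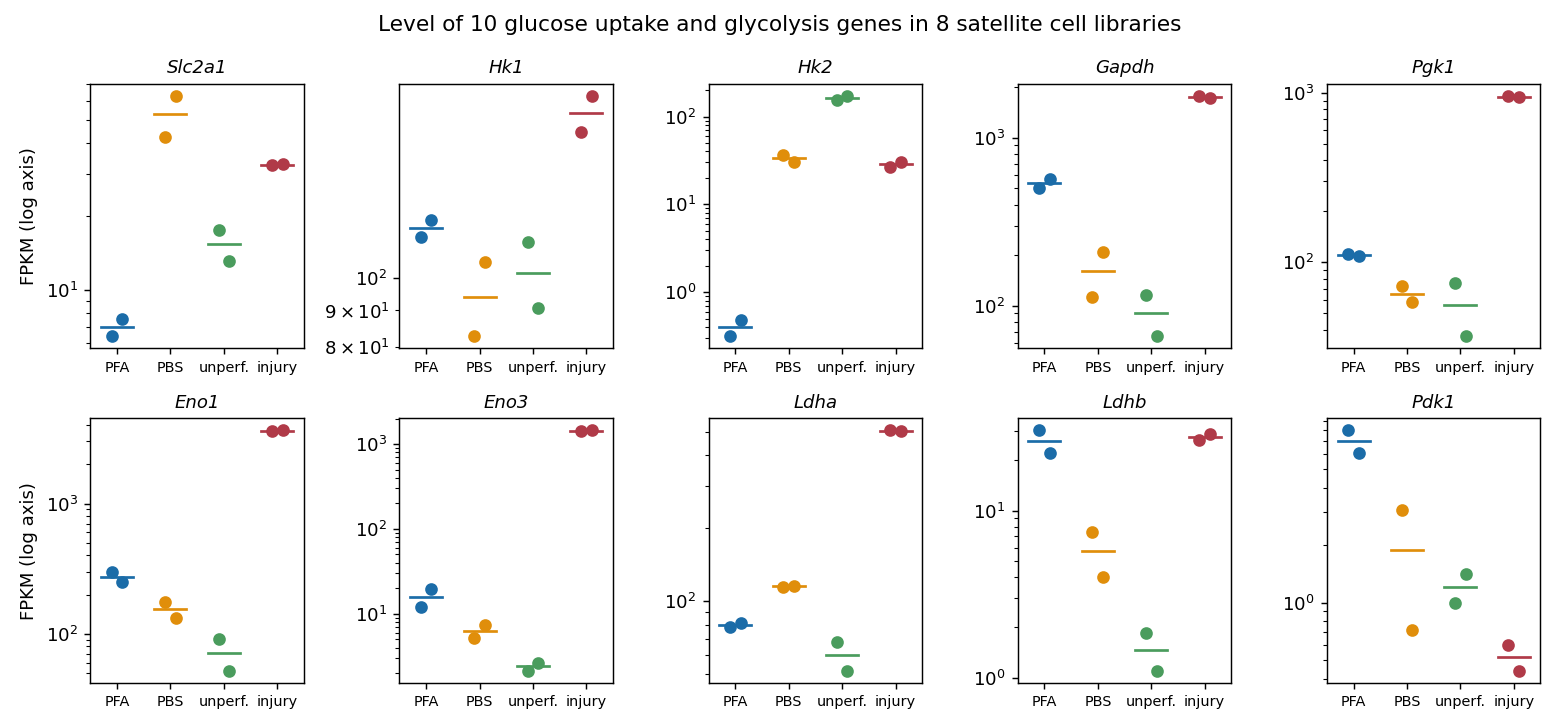
FPKM on a log axis for each of the 10 genes, 1 point per library and a bar at the mean of the 2 libraries of a group. The injury-activated points of Gapdh, Pgk1, Eno1, Eno3 and Ldha lie far above all others, those of Hk2 and Slc2a1 lie below the unperfused and the PBS-perfused points respectively, and those of Pdk1 are the lowest.

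Against the PFA-perfused group, 2 of the 10 genes were called higher and 5 lower in PBS-perfused cells, where 64.0% of all tested genes were called, 17.8% higher and 46.2% lower. The called genes were Slc2a1 and Hk2 upward and Gapdh, Eno1, Eno3, Ldhb and Pdk1 downward. The median difference of the 10 genes was -0.79 on the log2 scale, and that of all tested genes was -0.50. Between unperfused and PFA-perfused cells, 2 were called higher and 6 lower, where 73.6% of all genes were called, 17.4% higher and 56.3% lower. Pgk1 joined the genes called lower, and the median was -1.45 against -0.81 over all genes. Between unperfused and PBS-perfused cells, Hk2 was called higher and 5 genes lower, where 49.6% of all genes were called, 13.1% higher and 36.5% lower. The genes called lower were Slc2a1, Eno1, Eno3, Ldha and Ldhb, and the median was -0.88 against -0.36 over all genes.

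Between injury-activated and unperfused cells, 8 genes were called higher and Hk2 lower, where 70.0% of all genes were called, 40.8% higher and 29.3% lower. The median of the 10 genes was 3.31 on the log2 scale and that of all genes was 0.17. Pdk1 was not called in this comparison with all libraries, but was called lower without either PBS-perfused library, at the same difference of -0.53. Between injury-activated and PFA-perfused cells, 7 genes were called higher and Pdk1 lower, where 73.5% of all genes were called, 26.1% higher and 47.3% lower. The median was 2.36, against -0.48 over all genes. Injury-activated and PBS-perfused cells were not tested against each other. The 5 comparisons share libraries, so their calls do not stand apart from each other.

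Because the median gene itself differed between groups, the libraries were also scaled by the trimmed mean of log ratios, which brought the median of all genes to between -0.06 and 0.11. All genes were then called higher and lower in near equal shares, 28.9% and 25.6% for PBS-perfused against PFA-perfused cells, 36.0% and 31.9% for unperfused against PFA-perfused cells, and 24.5% and 22.9% for unperfused against PBS-perfused cells. The shares were 36.2% and 36.8% for injury-activated against unperfused cells and 39.7% and 33.1% for injury-activated against PFA-perfused cells. Of the 10 genes, 3 were now called higher and 3 lower in PBS-perfused against PFA-perfused cells, 4 and 5 in unperfused against PFA-perfused cells, and 2 and 2 in unperfused against PBS-perfused cells. The medians in these comparisons shrank to -0.16, -0.31 and -0.32. Injury-activated cells had 7 genes higher and 1 lower against unperfused cells, at a median of 3.0, and 9 higher and 1 lower against PFA-perfused cells, at a median of 3.10. The differences described as scaled below are those after the trimmed mean.

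**Figure D2:**
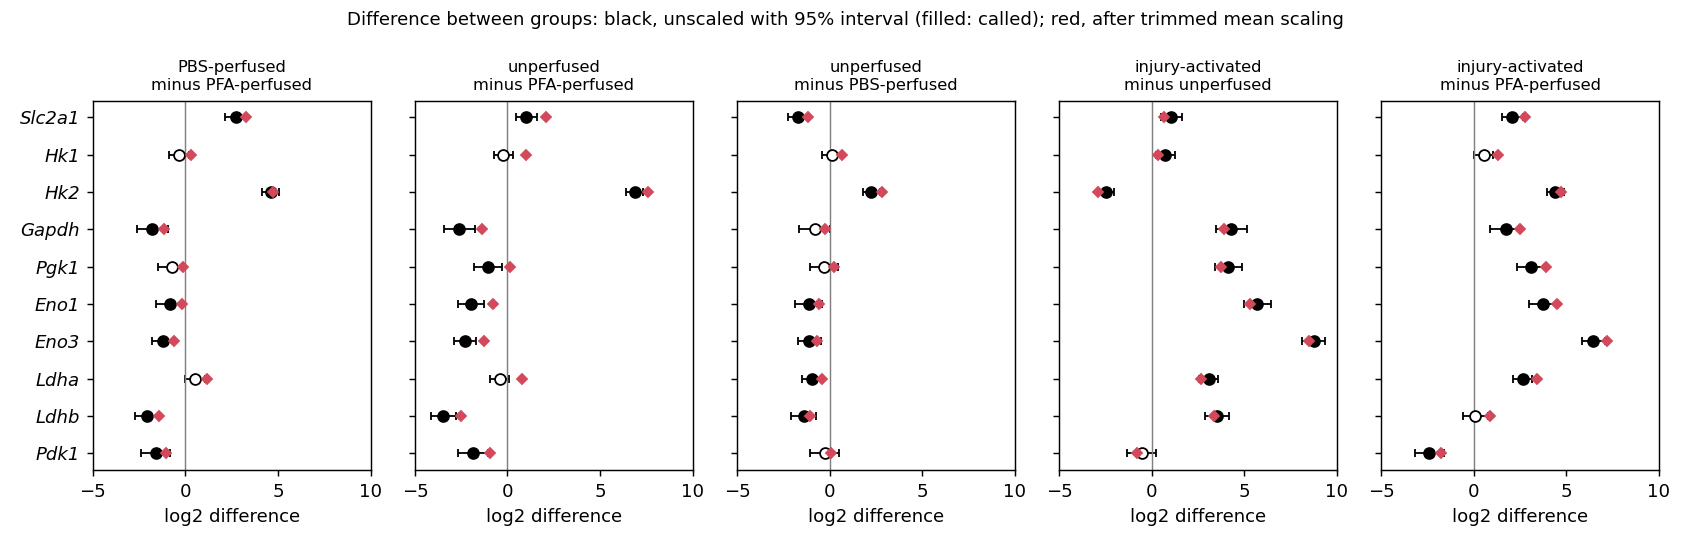
Difference of each of the 10 genes on the log2(FPKM + 1) scale in the 5 comparisons, with 95% intervals from limma in black, filled where the gene was called, and red diamonds for the difference after trimmed mean scaling. Hk2 lies to the right of 0 in every panel but injury-activated against unperfused cells, where it lies at -2.48, and Eno3 reaches 8.74 there.

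The starts of these genes were read for short motifs because hypoxia-inducible factors, known regulators of many glycolytic genes, bind the core ACGTG or GCGTG. The RefSeq promoter table (build GRCm38.p6, whereas the reads were processed on mm9) gave 15 start sites for the 10 genes, and the 250 bases before each start were searched. ACGTG, or CACGT on the printed strand where the other strand reads ACGTG, stood in 4 of 15 windows, or 26.7%, and in 16.6% of all 32851 windows of the table. The form GCGTG stood in 10 of 15 windows and in 28.2% of all windows. These were windows of Slc2a1, Gapdh, Eno1, Eno3 and Ldhb, of the downstream starts of Hk1 and Ldha, and of the upstream start of Pdk1. Each of the 10 genes thus held ACGTG or GCGTG before at least 1 start. The share of all genes that hold either form was not computed, so this count has no background beside it. Hk1, Eno1, Ldha and Pdk1 had more than 1 start and so more windows in which to hold a match. The upstream start of Hk1 and the downstream start of Pdk1 held neither form. A pair of the Eno1 windows overlap in most of their length, so the same matches are counted in both. The 4 windows with ACGTG are printed 5′ to 3′ on the strand of the gene with the motif in capitals, followed by that of Eno3, the gene of the largest difference, which holds none. CACGTG reads ACGTG on both strands, and capitals mark it whole.
Slc2a1: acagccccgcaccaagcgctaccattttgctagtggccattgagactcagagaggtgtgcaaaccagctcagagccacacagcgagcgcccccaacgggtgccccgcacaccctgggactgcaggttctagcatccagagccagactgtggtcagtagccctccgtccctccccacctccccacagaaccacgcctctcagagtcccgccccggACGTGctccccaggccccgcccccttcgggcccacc
Hk2: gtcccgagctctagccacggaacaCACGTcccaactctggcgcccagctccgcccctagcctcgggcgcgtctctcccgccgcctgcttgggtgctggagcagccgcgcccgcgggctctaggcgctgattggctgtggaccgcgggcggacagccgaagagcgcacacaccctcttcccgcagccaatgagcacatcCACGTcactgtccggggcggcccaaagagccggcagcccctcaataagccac
Pgk1: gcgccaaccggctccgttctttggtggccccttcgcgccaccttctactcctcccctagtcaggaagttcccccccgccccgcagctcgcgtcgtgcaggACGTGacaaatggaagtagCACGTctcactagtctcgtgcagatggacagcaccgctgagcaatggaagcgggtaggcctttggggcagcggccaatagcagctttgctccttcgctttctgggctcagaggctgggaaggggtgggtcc
Ldha: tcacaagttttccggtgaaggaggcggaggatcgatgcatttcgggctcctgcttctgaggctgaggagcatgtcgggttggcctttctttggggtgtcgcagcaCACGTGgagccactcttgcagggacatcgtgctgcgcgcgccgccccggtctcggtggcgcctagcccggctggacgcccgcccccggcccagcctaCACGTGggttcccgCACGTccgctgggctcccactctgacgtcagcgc
Eno3: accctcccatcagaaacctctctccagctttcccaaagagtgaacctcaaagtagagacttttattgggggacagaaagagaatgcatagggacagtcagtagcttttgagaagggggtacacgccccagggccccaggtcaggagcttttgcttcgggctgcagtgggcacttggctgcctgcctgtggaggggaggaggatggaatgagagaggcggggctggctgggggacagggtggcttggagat
The Slc2a1 window lies at chr4:119108495-119108744 on the plus strand, with its motif beginning 36 bases before the start. That of Hk2 lies at chr6:82774455-82774704 on the minus strand, with motifs at 226 and 52 bases before the start, and that of Pgk1 at chrX:106186850-106187099 on the plus strand, with motifs at 150 and 131 bases. The window of the upstream start of Ldha, at chr7:46845554-46845803 on the plus strand, holds 3 stretches, at 145, 48 and 34 bases, of which those at 145 and 48 are CACGTG. That longer word stood in 6.02% of all windows. The Eno3 window lies at chr11:70656926-70657175 on the plus strand. Windows of Hk1, Gapdh, Eno1, Ldhb and Pdk1 also lacked ACGTG, as did the downstream start of Ldha. The 4 genes that hold ACGTG did not share a pattern of levels, since Slc2a1 was highest in PBS-perfused cells, Hk2 in unperfused cells, and Pgk1 and Ldha in injury-activated cells.

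Slc2a1, the transporter of basal glucose uptake, was measured at 6.43 and 7.55 FPKM in PFA-perfused cells and at 42.5 and 62.9 FPKM in PBS-perfused cells. Unperfused cells held 17.6 and 13.2 FPKM, and injury-activated cells held 32.6 and 32.8 FPKM. No libraries of different groups overlapped, and the order ran from PBS-perfused through injury-activated and unperfused to PFA-perfused cells. The difference from PFA-perfused cells was 2.73 ± 0.25 (SE) on the log2 scale in PBS-perfused cells (limma adjusted p = 4.32e-05), 1.02 ± 0.25 in unperfused cells (adjusted p = 0.00428) and 2.08 ± 0.25 in injury-activated cells (adjusted p = 5.71e-05). Unperfused cells lay below PBS-perfused cells by a difference of -1.70 ± 0.25 (adjusted p = 0.000498). The rise in injury-activated against unperfused cells was 1.06 ± 0.25 (adjusted p = 0.00389), and it was 0.55 and no longer called after quantile normalization (adjusted p = 0.0647). Erythroid and endothelial cells also express this transporter, and endothelial markers were highest in PBS-perfused cells. The 12 endothelial markers summed to 185 to 283 FPKM there, all above 1 FPKM, against 66.1 to 78.2 in PFA-perfused, 30.8 to 43.3 in unperfused and 8.28 to 8.70 in injury-activated cells. Tek alone held 46.5 and 50.9 FPKM of the PFA-perfused sums, at a mean of 48.7 FPKM against 47.9 in PBS-perfused cells. The other 11 markers each had their highest mean in PBS-perfused cells, among them Cldn5 at 59.9 against 2.97 FPKM in PFA-perfused cells and Pecam1 at 26.8 against 2.19. The 8 erythroid markers summed to 72.6 to 73.7 FPKM in PBS-perfused cells, 0.416 to 78.5 in PFA-perfused cells, 6.27 to 7.60 in unperfused cells and 5.57 to 8.82 in injury-activated cells, with Slc4a1 at 0 in both injury-activated libraries. Their part in the level of Slc2a1 was not tested.

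For the wider pathway, 7 lists of other genes are described by their counts, beside the shares and medians of all genes given above. Of 12 other transporters and regulators of glucose entry in the table, 7 passed the filter. Slc2a3, a transporter of high affinity, was called higher than in PFA-perfused cells in all other groups, by 2.13 ± 0.32 in PBS-perfused, 3.64 ± 0.32 in unperfused and 2.10 ± 0.32 in injury-activated cells. Its mean was 2.98 FPKM in PFA-perfused cells and 46.8 FPKM in unperfused cells, above the 15.4 FPKM of Slc2a1 in the same cells. Slc2a12 went the other way, with means of 30.6 FPKM in PFA-perfused cells, 9.19 in PBS-perfused cells, 5.41 in unperfused cells and 0.383 in injury-activated cells. Txnip, which curbs glucose uptake, likewise had its highest mean in PFA-perfused cells, at 43.9 FPKM, and its lowest in injury-activated cells, at 5.01 FPKM. Its difference of -0.98 ± 0.25 in PBS-perfused against PFA-perfused cells was not called after scaling (-0.36, adjusted p = 0.293). Arrdc4 peaked instead in PBS-perfused cells, at a mean of 53.8 FPKM against 27.3 in PFA-perfused, 5.06 in unperfused and 2.36 in injury-activated cells. Over the list, 2 genes were called higher and 4 lower in PBS-perfused against PFA-perfused cells, and 1 and 6 in both unperfused and injury-activated against PFA-perfused cells. The list's medians in these comparisons were -0.98, -2.20 and -2.91. Against unperfused cells, injury-activated cells had 0 called higher and 4 lower, at a median of -0.69, and 2 lower without unperfused replicate 1 or injury-activated replicate 2.

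Hk1, the housekeeping hexokinase, was measured at 114 and 120.3 FPKM in PFA-perfused cells, 82.9 and 105.2 FPKM in PBS-perfused cells and 112 and 90.8 FPKM in unperfused cells. Injury-activated cells held 159.9 and 179.5 FPKM, above every other library, and the PBS-perfused and unperfused libraries overlapped. The rise in injury-activated against unperfused cells, 0.74 ± 0.24 (adjusted p = 0.019), was the only call for Hk1 in the 5 comparisons. It was lost without unperfused replicate 2 (0.59, adjusted p = 0.0604), without injury-activated replicate 1 (0.83, adjusted p = 0.077) or replicate 2 (0.66, adjusted p = 0.147), and after scaling (0.34, adjusted p = 0.168). Against PFA-perfused cells the difference was 0.53 ± 0.24 in injury-activated cells (adjusted p = 0.0693), called without either unperfused library at the same value and after scaling (1.32, adjusted p = 0.000406). The differences of PBS-perfused and unperfused from PFA-perfused cells, -0.32 and -0.21, turned to 0.31 and 0.98 after scaling, and the latter was then called (adjusted p = 0.00271). Between unperfused and PBS-perfused cells the difference of 0.11 ± 0.24 had a 95% interval of -0.43 to 0.65, turned to -0.06 without PBS-perfused replicate 1 and to -0.04 without unperfused replicate 1, and was called after scaling (0.67, adjusted p = 0.0261).

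Hk2, the insulin-responsive hexokinase of muscle that binds the mitochondrial surface, spanned the widest range after Eno3. It stood at 0.318 and 0.484 FPKM in PFA-perfused cells, 36.2 and 30.6 FPKM in PBS-perfused cells, and 154 and 173 FPKM in unperfused cells. Injury-activated cells held 26.6 and 30.4 FPKM. The 4 groups did not overlap, although the PBS-perfused and injury-activated levels lay close together. The difference from PFA-perfused cells was 4.62 ± 0.20 in PBS-perfused cells (adjusted p = 3.02e-06), 6.87 ± 0.20 in unperfused cells (adjusted p = 5.47e-07) and 4.39 ± 0.20 in injury-activated cells (adjusted p = 4.04e-07). Unperfused cells exceeded PBS-perfused cells by 2.26 ± 0.20 (adjusted p = 3.41e-05), and injury-activated cells lay below unperfused cells by a difference of -2.48 ± 0.20 (adjusted p = 7.36e-06). These calls held under every scaling, filter, pseudocount and left-out library tried.

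The ratio of Hk2 to Hk1 within a library is not changed by a common factor per library except through the pseudocount. In FPKM, Hk2 was 0.279% and 0.402% of Hk1 in PFA-perfused cells, 43.7% and 29.1% in PBS-perfused cells and 16.6% and 16.9% in injury-activated cells. In unperfused cells Hk2 was the more abundant form, at 138% and 190.2% of Hk1. On the log2(FPKM + 1) scale the mean ratio was -6.40 ± 0.07 (SD, n = 2) in PFA-perfused cells, -1.46 ± 0.41 in PBS-perfused cells, 0.69 ± 0.33 in unperfused cells and -2.54 ± 0.01 in injury-activated cells. An exact permutation test over all assignments of the 8 libraries to the 4 groups gave p = 0.0095, the smallest it can give, and 0.0285 after adjustment over the 3 isozyme ratios.

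**Figure D3:**
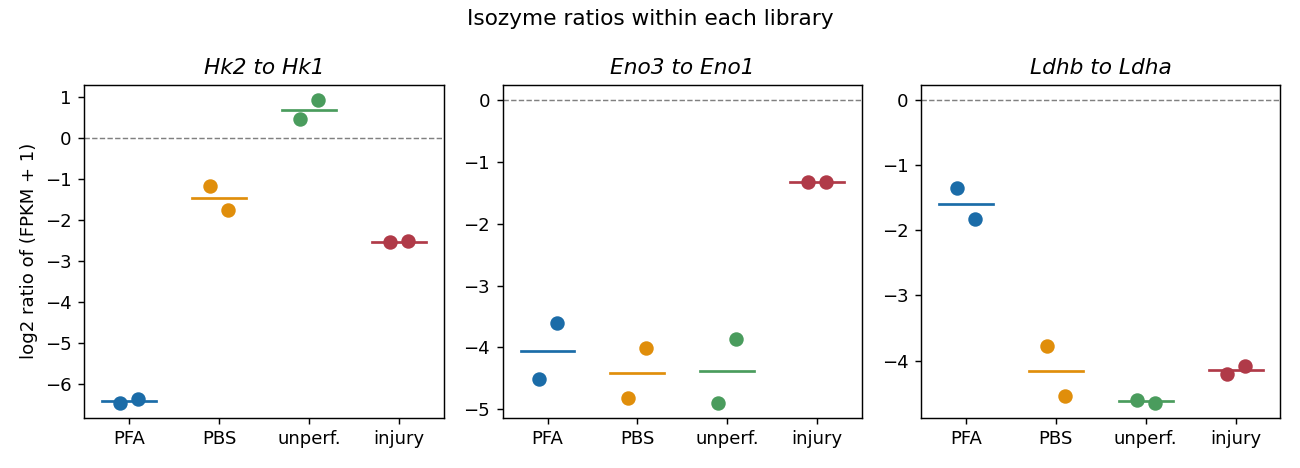
Log2 ratio of FPKM + 1 between 2 isozymes within each library, for Hk2 to Hk1, Eno3 to Eno1 and Ldhb to Ldha, with a bar at each group mean and a dashed line where both forms are equal. Unperfused libraries alone lie above the line for Hk2, injury-activated libraries lie highest for Eno3, and PFA-perfused libraries lie highest for Ldhb.

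Gapdh, which oxidises glyceraldehyde 3-phosphate, stood at 500.3 and 569.7 FPKM in PFA-perfused cells, 113 and 210.3 FPKM in PBS-perfused cells and 116 and 66.1 FPKM in unperfused cells. Injury-activated cells held 1778 and 1729 FPKM. PBS-perfused and unperfused libraries overlapped, and both lay below the PFA-perfused libraries. Gapdh fell by 1.79 ± 0.37 in PBS-perfused cells (adjusted p = 0.00264) and by 2.60 ± 0.37 in unperfused cells (adjusted p = 0.000187) against PFA-perfused cells. After scaling the differences were -1.15 and -1.40, both still called. Gapdh rose by 4.31 ± 0.37 in injury-activated against unperfused cells (adjusted p = 9.84e-06) and by 1.71 ± 0.37 against PFA-perfused cells (adjusted p = 0.00241). The difference of -0.81 ± 0.37 between unperfused and PBS-perfused cells was not called (adjusted p = 0.099), but was called without PBS-perfused replicate 1 (-1.26, adjusted p = 0.0307) or unperfused replicate 1 (-1.21, adjusted p = 0.037). Gapdh is often used to put samples on a common scale, and its mean here differed up to 19.3 times between groups. Mouse genomes carry many processed copies of Gapdh, and how reads were shared with them was not given in the sources used here.

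Pgk1, which makes ATP from the product of Gapdh, stood at 111 and 108 FPKM in PFA-perfused cells and at 72.8 and 58.1 FPKM in PBS-perfused cells. Unperfused cells held 75.7 and 36.7 FPKM, a wide gap that reached past both PBS-perfused values, and injury-activated cells held 963 and 940.3 FPKM. It rose by 4.15 ± 0.33 in injury-activated against unperfused cells (adjusted p = 6.44e-06) and by 3.10 ± 0.33 against PFA-perfused cells (adjusted p = 2.84e-05). The fall of 1.04 ± 0.33 in unperfused against PFA-perfused cells (adjusted p = 0.0171) was lost without PFA-perfused replicate 1 (-1.02, adjusted p = 0.0708), PFA-perfused replicate 2 (-1.06, adjusted p = 0.0612) or unperfused replicate 2 (-0.53, adjusted p = 0.0728), and turned to 0.15 after scaling. The difference of -0.75 ± 0.33 in PBS-perfused against PFA-perfused cells (adjusted p = 0.0739) was called at the same value without unperfused replicate 1 (adjusted p = 0.0105) or replicate 2 (adjusted p = 0.0106). Against PBS-perfused cells, unperfused cells differed by -0.30 ± 0.33, by -0.81 without unperfused replicate 1, when it was called (adjusted p = 0.0243), and by 0.22 without unperfused replicate 2. Both rises of Pgk1 in injury-activated cells were called in every alternative tried, and none of its other differences were.

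Eno1, the enolase of most tissues, was the most abundant of the 10 genes after injury. It stood at 297 and 251 FPKM in PFA-perfused cells, 175 and 133 FPKM in PBS-perfused cells and 91.6 and 51.9 FPKM in unperfused cells, with no overlap between groups. Injury-activated cells held 3607 and 3639.5 FPKM, a rise of 5.69 ± 0.32 over unperfused cells (adjusted p = 1.28e-06) and of 3.72 ± 0.32 over PFA-perfused cells (adjusted p = 8.02e-06). Eno1 fell by 1.97 ± 0.32 in unperfused against PFA-perfused cells (adjusted p = 0.000418; -0.77 after scaling, adjusted p = 0.0187). The fall of 0.84 ± 0.32 in PBS-perfused cells (adjusted p = 0.0449) was lost after scaling (-0.20) and without PFA-perfused replicate 1 (-0.72), PFA-perfused replicate 2 (-0.96), PBS-perfused replicate 2 (-0.64) or either injury-activated library (-0.84). The fall of 1.13 ± 0.32 between PBS-perfused and unperfused cells (adjusted p = 0.0165) was lost after scaling (-0.57) and without PBS-perfused replicate 1 (-0.94) or unperfused replicate 2 (-0.73). Both rises in injury-activated cells and the fall from PFA-perfused to unperfused cells were called in every alternative tried. Eno1b, listed as its own symbol, is a near-identical copy of Eno1, so reads could be split between them. It stood between 0.126 and 18.7 FPKM over the 8 libraries, far below Eno1 in each.

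Eno3, the enolase of muscle fibres, showed the largest difference among the 10 genes. It stood at 12.04 and 19.8 FPKM in PFA-perfused cells, 5.23 and 7.32 FPKM in PBS-perfused cells and 2.12 and 2.66 FPKM in unperfused cells, again without overlap. Injury-activated cells held 1443 and 1452 FPKM. The rise was 8.74 ± 0.27 over unperfused cells (adjusted p = 2.87e-07) and 6.46 ± 0.27 over PFA-perfused cells (adjusted p = 3.18e-07). Among the groups without injury, Eno3 fell by 2.29 ± 0.27 from PFA-perfused to unperfused cells (adjusted p = 5.49e-05), and this was -1.27 after scaling (adjusted p = 0.00442). The fall of 1.19 ± 0.27 from PFA-perfused to PBS-perfused cells (adjusted p = 0.00393) was not called after scaling (-0.60, adjusted p = 0.112). The fall of 1.09 ± 0.27 from PBS-perfused to unperfused cells (adjusted p = 0.00838) was not called after scaling (-0.67, adjusted p = 0.0934) or without PBS-perfused replicate 2 (-0.88, adjusted p = 0.0505). Both rises in injury-activated cells and the fall from PFA-perfused to unperfused cells were again called in every alternative tried.

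The sum of muscle fibre markers was also highest in injury-activated cells. The 14 fibre markers summed to 308 to 348 FPKM there, with 9 of 14 above 1 FPKM in both libraries, against 83.9 to 95.1 FPKM in PFA-perfused, 55.8 to 78.7 in PBS-perfused and 39.3 to 45.8 in unperfused cells. The list was uneven after injury. Acta1 reached 133 and 93.9 FPKM, Tnnt3 60.2 and 58.6 FPKM and Tnnc2 49.0 and 49.2 FPKM, whereas Ckm stood at 2.97 and 1.81 FPKM, Myh4 at 0.176 and 0.0768 FPKM, Pvalb at 0.0138 and 0.0147 FPKM and Mb at 0.0935 and 0.0997 FPKM. Ckm, Myh2, Myh4, Atp2a1, Pvalb and Mb had a higher mean in some other group than after injury. Atp2a1 had a mean of 45.4 FPKM in PFA-perfused cells against 25.2 after injury, and Ckm 5.33 in PBS-perfused cells against 2.39. Eno3 alone exceeded the summed level of all 14 markers in both injury-activated libraries and lay below it in the other 6. The sum of haematopoietic markers was highest after injury as well. The 12 of 13 in the table summed to 74.1 to 83.4 FPKM there. The sums were 55.8 to 60.2 in PBS-perfused, 30.5 to 42.0 in unperfused and 9.73 to 13.3 in PFA-perfused cells. This list was uneven too, with Lyz2 alone at a mean of 43.5 FPKM after injury. Cd68, Cd74, Cd14, Cd3e and Cd79a had a higher mean in some other group, and the rest were highest after injury. Cd68 had a mean of 27.5 FPKM in unperfused cells against 9.99 after injury, and Cd74 17.9 in PBS-perfused cells against 7.09. Ptprc, the pan-leukocyte marker CD45, stood at 0.203 and 0.250 FPKM in injury-activated cells. The part of fibre or leukocyte RNA in the level of Eno3 and of the other genes that rose was not tested.

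Relative to Eno1, Eno3 stood at 4.05% and 7.89% in PFA-perfused cells, 2.99% and 5.503% in PBS-perfused cells and 2.32% and 5.11% in unperfused cells, so that these groups overlapped. Both injury-activated libraries lay far above, at 40.0% and 39.9%. On the log2(FPKM + 1) scale the mean ratio was -4.06 ± 0.65 (SD, n = 2), -4.41 ± 0.57 and -4.37 ± 0.73 in the groups without injury and -1.32 ± 0.00 in injury-activated cells. The exact permutation test over the 4 groups gave p = 0.1048, and 0.1048 after adjustment, which did not pass the threshold. This test weighs all 4 groups at once, so its p also depends on how the overlapping libraries without injury are grouped. It cannot decide whether the injury-activated ratio alone differs.

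Ldha, which favours lactate production, stood at 78.3 and 81.3 FPKM in PFA-perfused cells, 115 and 116 FPKM in PBS-perfused cells and 68.0 and 51.5 FPKM in unperfused cells. Injury-activated cells held 507 and 502 FPKM, and no groups overlapped. The rise was 3.07 ± 0.23 over unperfused cells (adjusted p = 4.57e-06) and 2.64 ± 0.23 over PFA-perfused cells (adjusted p = 8.28e-06). Ldha fell by 0.95 ± 0.23 from PBS-perfused to unperfused cells (adjusted p = 0.00778), and this was not called after scaling (-0.39, adjusted p = 0.101). PBS-perfused cells lay 0.53 ± 0.23 above PFA-perfused cells (adjusted p = 0.071), which was called after scaling (1.15, adjusted p = 0.000846) and, at the same value, without unperfused replicate 1 (adjusted p = 0.024) or replicate 2 (adjusted p = 0.0238). Unperfused cells differed from PFA-perfused cells by -0.42 ± 0.23 (adjusted p = 0.122), by -0.62 without unperfused replicate 1 (adjusted p = 0.0252), and by 0.76 after scaling, when the difference was called upward (adjusted p = 0.00455).

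Ldhb, the form that favours pyruvate, fell stepwise over the groups without injury, from 30.1 and 22.2 FPKM in PFA-perfused cells to 7.40 and 4.004 FPKM in PBS-perfused cells and 1.85 and 1.10 FPKM in unperfused cells. Injury-activated cells held 26.5 and 28.5 FPKM, between the PFA-perfused libraries. The differences from PFA-perfused cells were -2.05 ± 0.29 in PBS-perfused cells (adjusted p = 0.000331) and -3.46 ± 0.29 in unperfused cells (adjusted p = 8.31e-06), and unperfused cells lay below PBS-perfused cells by a difference of -1.41 ± 0.29 (adjusted p = 0.00345). Each of these 3 falls was still called after scaling, at -1.44, -2.49 and -1.05. The rise in injury-activated over unperfused cells was 3.54 ± 0.29 (adjusted p = 7.50e-06). Between injury-activated and PFA-perfused cells the difference of 0.09 ± 0.29 had a 95% interval of -0.57 to 0.74. It was -0.13 without PFA-perfused replicate 2, and 0.85 and called after scaling (adjusted p = 0.0155).

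Ldhb was 38.4% and 27.3% of Ldha in PFA-perfused cells, and between 2.14% and 6.45% in the 6 other libraries. The mean log2 ratio was -1.59 ± 0.34 (SD, n = 2) in PFA-perfused cells, -4.17 ± 0.54 in PBS-perfused cells, -4.62 ± 0.03 in unperfused cells and -4.15 ± 0.08 in injury-activated cells. The exact permutation test gave p = 0.0667, and 0.1 after adjustment over the 3 ratios. As with the enolases, it weighs all 4 groups at once and cannot decide whether the PFA-perfused ratio alone differs. The adjusted p was 0.0142 without PBS-perfused replicate 1 and likewise without PBS-perfused replicate 2, with the range of group means at 3.03 as before, and 0.0429 with a pseudocount of 0.1. The 11 fibro-adipogenic markers summed to 592 to 994 FPKM in PFA-perfused, 453 to 601 in PBS-perfused, 677 to 811 in unperfused and 148 to 156 in injury-activated cells. Dpt, Col3a1 and Pdgfrl carried most of the PFA-perfused sums, at means of 476, 211 and 74.7 FPKM. The other 8 had lower means in PFA-perfused than in PBS-perfused cells, such as Pdgfra at 0.157 against 1.99 FPKM and Dcn at 4.07 against 46.7 FPKM. The part of these markers in the ratio was not tested.

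Pdk1, which phosphorylates and silences pyruvate dehydrogenase, was the gene of the 10 with its highest level in fixed cells and its lowest after injury. It was measured in PFA-perfused cells at 7.99 and 6.08 FPKM and in injury-activated cells at 0.603 and 0.440 FPKM. PBS-perfused libraries differed widely, at 3.05 and 0.718 FPKM, and their range took in both unperfused libraries, at 0.997 and 1.42 FPKM. The differences from PFA-perfused cells were -1.60 ± 0.35 in PBS-perfused cells (adjusted p = 0.00338), -1.86 ± 0.35 in unperfused cells (adjusted p = 0.000975) and -2.39 ± 0.35 in injury-activated cells (adjusted p = 0.000207). The first was -2.22 without PBS-perfused replicate 1 and -0.98 without PBS-perfused replicate 2. After scaling the 3 differences were -1.05, -0.97 and -1.79, all still called, whereas that of unperfused cells was not called after quantile normalization (-0.91, adjusted p = 0.0621). Between unperfused and PBS-perfused cells the difference of -0.26 ± 0.35 turned to 0.36 without PBS-perfused replicate 1, and was called at -0.88 without PBS-perfused replicate 2 (adjusted p = 0.0163). In injury-activated against unperfused cells it was -0.53 ± 0.35 (adjusted p = 0.197), called at the same value without PBS-perfused replicate 1 (adjusted p = 0.0289) or replicate 2 (adjusted p = 0.0309).

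The subunits and other regulators of pyruvate dehydrogenase, listed together with the pyruvate carboxylase gene Pcx, moved in both directions, and all 12 genes passed the filter. Pdk2, the most abundant of the kinases in PFA-perfused cells at a mean of 18.8 FPKM, stood at 2.02, 0.697 and 1.09 FPKM in PBS-perfused, unperfused and injury-activated cells. Pdk4 ran the opposite way, from a mean of 11.3 FPKM in PFA-perfused cells to 52.6, 38.6 and 66.1 FPKM in the same groups. Among the phosphatases that undo these kinases, Pdp2 stood at 1.72 and 1.10 FPKM in PFA-perfused and PBS-perfused cells, 84.1 FPKM in unperfused cells and 17.0 FPKM in injury-activated cells. Its difference between unperfused and PBS-perfused cells was 5.26 ± 0.31 (adjusted p = 4.52e-06). Pdp1 rose by 2.02 ± 0.35 in PBS-perfused and 2.61 ± 0.35 in unperfused cells over PFA-perfused cells and fell by 3.06 ± 0.35 from unperfused to injury-activated cells. The catalytic subunit gene Pdha1 rose by 2.64 ± 0.26 and the core subunit gene Dlat by 2.27 ± 0.24 in injury-activated against unperfused cells.

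Over that list, 2 genes were called higher and 4 lower, Pcx among the latter, in PBS-perfused against PFA-perfused cells, and 2 were lower without PFA-perfused replicate 1. The counts were 3 and 5, again with Pcx, in unperfused against PFA-perfused cells and 2 and 4 in unperfused against PBS-perfused cells. Against unperfused cells, injury-activated cells had 8 called higher and 2 lower, at a median of 1.57, and 7 and 1 against PFA-perfused cells, at a median of 0.76. After scaling, 5 were higher and 2 lower in PBS-perfused and 7 and 4 in unperfused cells, each against PFA-perfused cells. The median in unperfused against PFA-perfused cells was -0.23, turned to 0.04 without unperfused replicate 2, and was 0.70 after scaling.

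Of 22 other genes of the glycolytic steps in the table, 12 passed the filter. In injury-activated against unperfused cells 10 were called higher and 0 lower, before and after scaling, with a median of 1.91 on the log2 scale, or 1.53 after scaling. The largest rises were those of Tpi1, which interconverts the triose phosphates, at 4.92 ± 0.27, the pyruvate kinase gene Pkm at 3.14 ± 0.30, the isomerase gene Gpi1 at 2.76 ± 0.26 and the mutase gene Pgam1 at 2.70 ± 0.22. In FPKM, the mean of Pkm was 243 in unperfused and 2084 in injury-activated cells, and that of the aldolase Aldoa was 738 and 3021. Against PFA-perfused cells, injury-activated cells had 7 called higher and 4 lower, at a median of 1.11. Among the groups without injury more were lower than higher, as over all genes. In PBS-perfused against PFA-perfused cells 1 of the list was called higher and 6 lower, at a median of -0.59, where 46.2% of all genes were lower. In unperfused against PFA-perfused cells the counts were 0 and 7, at a median of -1.70, where 56.3% of all genes were lower. After scaling the counts were 4 and 4, at a median of 0.04, and 4 and 7, at a median of -0.82. Between unperfused and PBS-perfused cells 0 were higher and 6 lower, where 36.5% of all genes were lower, or 3 and 4 after scaling. Tpi1 fell by 3.24 ± 0.27 and the phosphofructokinase of muscle, Pfkm, by 2.42 ± 0.34 in unperfused against PFA-perfused cells, while the platelet form Pfkp rose by 1.14 ± 0.26 in PBS-perfused against PFA-perfused cells.

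**Figure D4:**
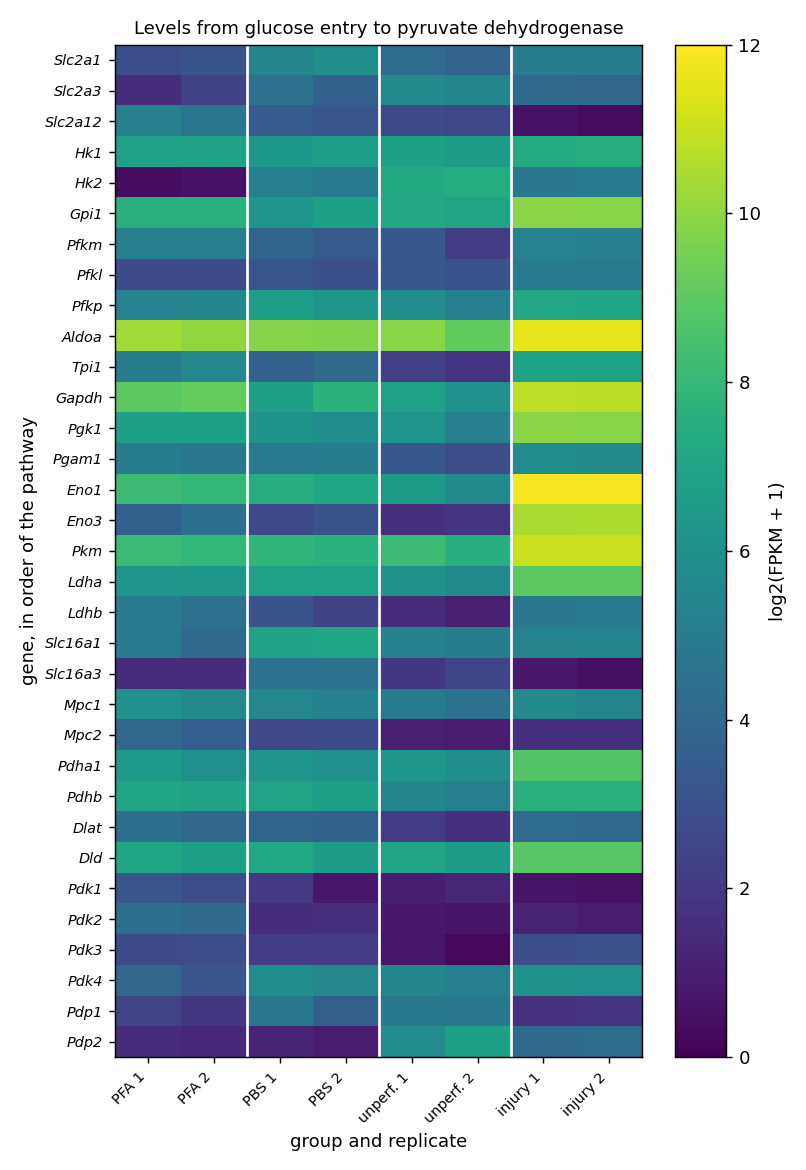
Level of 33 genes from glucose entry to pyruvate dehydrogenase in the 8 libraries as log2(FPKM + 1), in the order of the pathway from top to bottom, with white lines between groups. The steps from Gpi1 to Ldha are brightest in the 2 injury-activated columns, whereas Hk2, Slc2a3 and Pdp2 are brightest in the unperfused columns and Slc16a3 in the PBS-perfused columns.

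Export of lactate is served by monocarboxylate transporters, and a list of 10 genes held those for the transport of lactate and pyruvate and the lactate dehydrogenase genes Ldhc and Ldhd. Of these 7 passed the filter, Ldhd among them. Slc16a3, the exporter known from glycolytic tissue, had means of 1.88 FPKM in PFA-perfused cells, 22.7 in PBS-perfused cells, 3.74 in unperfused cells and 0.582 in injury-activated cells. It rose by 3.04 ± 0.23 in PBS-perfused against PFA-perfused cells and fell by 2.35 ± 0.23 from PBS-perfused to unperfused cells. Slc16a1 shared this peak, at 128 FPKM in PBS-perfused cells against 23.7, 35.1 and 40.9 FPKM in the others. Bsg, the chaperone that brings both to the membrane, had means of 20.6 and 15.3 FPKM in the perfused groups, 1.34 FPKM in unperfused cells and 10.8 FPKM in injury-activated cells. Over the list, 2 genes were called higher and 2 lower in PBS-perfused against PFA-perfused cells, 2 and 4 in unperfused against PFA-perfused cells, and 0 and 4 in unperfused against PBS-perfused cells. The medians were -0.41, -1.12 and -1.68. In injury-activated cells 3 were higher and 1 lower against unperfused cells, with 1 higher without unperfused replicate 2 or either injury-activated library, and 2 higher and 4 lower against PFA-perfused cells. Ldhd was among the genes called lower in each of the 3 comparisons with PFA-perfused cells. After scaling, unperfused cells had 3 higher and 3 lower against PFA-perfused cells, at a median of 0.05, and 1 and 4 against PBS-perfused cells. Injury-activated cells then had 1 and 1 against unperfused cells and 2 and 2 against PFA-perfused cells, and the counts of PBS-perfused against PFA-perfused cells were again 2 and 2, at a median of 0.20.

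A list of 9 genes held those of the pentose phosphate pathway, which branches off at glucose 6-phosphate, and Prps1. All 9 passed the filter. Against unperfused cells, injury-activated cells had 7 called higher and 0 lower, at a median of 2.00, led by the dehydrogenase genes G6pdx at 3.41 ± 0.27 and Pgd at 3.16 ± 0.35. Against PFA-perfused cells 5 were higher and 3 lower, at a median of 1.33. PBS-perfused cells had 1 higher, Prps1 at 2.01 ± 0.33, and 5 lower against PFA-perfused cells, at a median of -0.71. Unperfused cells had 0 and 7 against PFA-perfused cells, at a median of -1.22. After scaling these counts were 2 and 2 and 1 and 3, at medians of -0.20 and -0.18. Another list held 5 genes that set the activator of phosphofructokinase, a fructose bisphosphate, and the fructose bisphosphatase genes Fbp1 and Fbp2. Only Fbp1 and Fbp2 of these 7 did not pass the filter. Tigar, which degrades this activator, stood at a mean of 0.816 FPKM in unperfused and 18.0 FPKM in injury-activated cells, a rise of 3.39 ± 0.20. Pfkfb3, which makes it, rose by 2.16 ± 0.28 in PBS-perfused against PFA-perfused cells, from a mean of 1.5 to 10.7 FPKM. That list had 1 gene higher and 2 lower in PBS-perfused against PFA-perfused cells, 1 and 1 in unperfused against PFA-perfused cells, 0 and 0 in unperfused against PBS-perfused cells, 2 and 2 in injury-activated against unperfused cells and 3 and 2 against PFA-perfused cells. After scaling PBS-perfused cells had 1 higher and 1 lower against PFA-perfused cells, and unperfused cells had 2 and 0 against either perfused group. Injury-activated cells then had 2 and 2 against unperfused cells and 3 and 1 against PFA-perfused cells. Quantile normalization gave 3 and 0 between unperfused and PBS-perfused cells, where it gave 22.3% and 24.3% over all genes.

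A further list held hypoxia-inducible factors, their known targets apart from the glycolytic ones, and inhibitors of the factors such as Vhl, Hif1an and Egln2. Of its 21 genes in the table, 19 passed the filter. Against PFA-perfused cells, 10 were called higher and 2 lower in PBS-perfused cells, at a median of 0.97, and 7 and 5 in unperfused cells, at a median of 0.43. After scaling these counts were 11 and 1, and 12 and 3. Egln2 and Vhl were among those lower in unperfused cells, at -2.51 ± 0.21 and -1.90 ± 0.20 before scaling. In injury-activated against unperfused cells 5 were higher and 8 lower, at a median of -0.24. The count higher there was 3 after scaling and 3 after quantile normalization, which gave 36.4% of all genes higher. Between injury-activated and PFA-perfused cells 4 were higher and 9 lower, at a median of -0.50, or 8 and 5 at a median of 0.24 after scaling. Hif1a had means of 22.2 FPKM in PFA-perfused cells, 62.4 in PBS-perfused cells, 28.9 in unperfused cells and 10.6 in injury-activated cells. Its partner Arnt had means of 11.8, 42.2, 105.5 and 11.0 FPKM in the same order. Ndrg1 fell by 3.11 ± 0.30 and Vegfa by 2.31 ± 0.23 from unperfused to injury-activated cells, where the mitophagy receptor gene Bnip3 rose by 3.46 ± 0.35. Between unperfused and PBS-perfused cells 3 were higher and 9 lower, with Egln2 at -1.99 ± 0.21 and P4ha1 at -1.68 ± 0.25. The count higher was 5 after scaling and 5 after quantile normalization, which gave 22.3% of all genes higher.

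For each of the 10 genes, the 3 genes nearest in profile were sought among 7714 others, by the root mean square difference of log2(FPKM + 1) over the 8 libraries after each profile was centred. The closest match of all was Alg8 to Pgk1, at a difference of 0.0972, followed for Pgk1 by Mcm2 at 0.155 and Arhgap19 at 0.205. Hk1 lay nearest to Ninl at 0.138, and Ldha to Timeless at 0.149, Cks2 at 0.174 and Tcp1 at 0.175. Slc2a1 lay nearest to Hilpda at 0.303, and Hk2 to Plk2 at 0.383, Adamts4 at 0.467 and Ets1 at 0.567. Gapdh lay nearest to Gtf2h4 at 0.219, Ldhb to Ict1 at 0.193 and Ndufs8 at 0.198, and Pdk1 to Rab1b at 0.211. Eno1 lay nearest to Ube2c at 0.320 and Stmn1 at 0.322. Eno3 had no near neighbour, its closest being Spp1 at 0.768 and Ccnb1 at 0.789. Profiles of flat genes such as Hk1 lie closer to others because there is less to differ, so the distances do not rank the 10 genes.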

How the data were processed

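A deposited table holds 24328 gene symbols in rows and 8 libraries in columns, with no unit in its header. The deposited values were taken as FPKM because they hold decimals, their totals differ between libraries and this is a unit that StringTie reports. Per the submitters' processing notes, STAR 2.5.3a, StringTie 1.3.3 and R 3.4.1 were used with mm9, in roles not given in the sources used here. Per the labels, cDNA was made with a SMART-Seq kit from poly(A) RNA, after different RNA kits for fixed and unfixed cells.

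From the deposited FPKM, log2(FPKM + 1) was computed without scaling, and a gene was tested if 2 or more libraries reached 1 FPKM. All libraries entered 1 fit in limma 3.58.1 (R 4.3.3) with a variance trend and 5 contrasts, two-sided, with Benjamini-Hochberg adjustment over 12515 genes. Isozyme ratios were tested by exact permutation. The tests were checked on simulated data. For limma these data held few changed genes, in the PBS-perfused group alone and in equal numbers up and down. They did not cover a shift of the median gene between groups. Alternatives were the replicate number as a block, only the 2 groups compared, no filter, a filter of 5 FPKM, a pseudocount of 0.1, 4 scalings (trimmed mean with trims of 0.3 and 0.05, quantile normalization, an equal total per library, and the last without Rn45s and Malat1), a log2 difference beyond 1, and each library left out, when the lone library of a group was assumed to vary like the others.

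The 10 genes and all lists were chosen with earlier results of these data known. All 10 genes are named in every comparison, and of each list up to 4 called genes a comparison by size of difference, where the higher group averaged 10 FPKM or more. Part of these is printed, and Aldoa and Hif1a were named after their values were seen. Markers of 9 satellite cell, 14 fibre, 8 erythroid, 12 endothelial, 13 haematopoietic and 11 fibro-adipogenic genes were summed. Promoter sequences came from RefSeq on GRCm38.p6, matched by symbol for all 10 genes.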

Additional observations from a re-analysis of the deposited data

How the results depend on the processing

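Of 900 values of the 10 genes in 5 comparisons under 18 alternatives, 824 had the same direction and call as reported, 36 lost the call, 26 gained it and 14 changed sign. The sign changed after trimmed mean scaling for Hk1 in PBS-perfused (0.31) and unperfused cells (0.98) against PFA-perfused cells, for Pgk1 (0.15) and Ldha (0.76) in unperfused against PFA-perfused cells, and for Pgk1 (0.26) and Pdk1 (0.0833) in unperfused against PBS-perfused cells. It changed with an equal total per library for Hk1 in unperfused against PFA-perfused cells (0.0745), after quantile normalization for Pdk1 in unperfused against PBS-perfused cells (0.17), and without Rn45s and Malat1 for Ldhb in injury-activated against PFA-perfused cells (-0.18). In unperfused against PBS-perfused cells it changed for Hk1 without PBS-perfused replicate 1 (-0.0607) or unperfused replicate 1 (-0.0406), within a range of -0.0607 to 0.28 over the left-out libraries. There it also changed for Pgk1 without unperfused replicate 2 (0.22, range -0.81 to 0.22) and for Pdk1 without PBS-perfused replicate 1 (0.36, range -0.88 to 0.36). For Ldhb in injury-activated against PFA-perfused cells it changed without PFA-perfused replicate 2 (-0.13, range -0.13 to 0.30).

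The count of genes lower in PBS-perfused against PFA-perfused cells was 3 with no filter and 3 after trimmed mean scaling. The share lower over all genes in these settings was 22% and 25.6%, against 46.2% as reported. With that scaling 4 were higher in unperfused against PFA-perfused cells, where 36.0% of all genes were. In unperfused against PBS-perfused cells 2 were then higher and 2 lower, where 24.5% and 22.9% of all genes were. With only the 2 groups compared, 2 were lower in injury-activated against unperfused cells, where 33.1% of all genes were. With each library left out in turn, the counts higher and lower ranged from 2 to 3 and 4 to 6 (PBS-perfused against PFA-perfused), 2 to 2 and 5 to 7 (unperfused against PFA-perfused), 1 to 1 and 4 to 7 (unperfused against PBS-perfused), 7 to 8 and 1 to 2 (injury-activated against unperfused) and 7 to 8 and 1 to 1 (injury-activated against PFA-perfused). The range of group means of the Ldhb to Ldha ratio was 2.79 to 3.27 with each library left out, and 3.65 with a pseudocount of 0.1. The cause of these changes was not tested.

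Replicate numbers did not pair the libraries: replicate differences of the 4 groups correlated at -0.0467 to 0.117. With the replicate block, Pgk1 in PBS-perfused against PFA-perfused cells was called (-0.75, adjusted p = 0.0472), no other call of the 10 genes changed, and the Hk2 to Hk1 ratio, still at 7.09, had an adjusted permutation p of 0.125, where the smallest p before adjustment is 0.0417. The table gives no depth, so precision rests on 2 libraries a group, and the median residual SD of the 10 genes was 0.31 on the log2 scale.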
